A study of Homo sapiens with 8 samples.

Results

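The RNAs described here are the 37 genes that the human mitochondrial genome encodes, chosen as every gene of the count table whose name begins with MT-. They are 37 of 56303 genes in the table and fall into 13 mRNAs, 2 rRNAs and 22 tRNAs. The choice used names alone and no measured value. MeRIP-seq was carried out on SK-N-BE(2), an established human neuroblastoma cell line, to ask how m6A on mRNA alters when METTL14 is knocked down. One group carried a control shRNA (sh-NC) and the other an shRNA against METTL14 (shMETTL14), with 2 cultures per group, each giving 1 input library and 1 IP library, 8 libraries in all. RNA selected for poly(A) was broken into short pieces, a small part was kept as the input, and the rest went to immunoprecipitation for m6A, which gave the IP. The labels number the shMETTL14 cultures without saying whether they share 1 shRNA, and no source says how separately the cultures of an arm were grown, so the p-values measure only the spread between these samples.

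The mitochondrial genome is a small circle that is copied into long RNAs from both strands, the heavy-strand transcript carrying most genes and the light-strand transcript ND6 and a few tRNAs. Most tRNAs lie between mRNAs and rRNAs and are cut out, which frees most of the mRNAs for a short poly(A) tail. The mRNAs code for core subunits of respiratory complexes I, III and IV and of the ATP synthase, and the rRNAs and tRNAs serve the ribosomes inside the organelle. METTL14 is the partner of METTL3 in the nuclear enzyme that writes m6A on nuclear transcripts.

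Total counts ran from 32027379 to 47205265 per library. METTL14 itself was at 51.6 and 50.9 CPM (counts scaled to library size, here with TMM factors) in the 2 inputs of sh-NC, against 14.3 and 15.3 CPM under shMETTL14, which separates the arms as labelled. All 10 adrenergic neuroblastoma markers checked reached 1 CPM in every input, while leukocyte, epithelial and endothelial lists each had 1 marker at that level. Fibroblast markers reached it for 5 of 5 genes, with summed levels of 308 CPM in both inputs of sh-NC against 334 and 335 CPM under shMETTL14. The members of that list moved in both directions in the inputs, DCN by 1.33, LUM by 0.67 and COL3A1 by 0.14 on the log2 scale, COL1A1 by -0.67 and COL1A2 by 0.46, the last not passing edgeR's test (adjusted p = 0.163), and their part in the results was not tested. All 37 mitochondrial genes passed the filter on low counts. Their counts ran from 9589 to 1210542 per library for mRNAs and rRNAs and from 187 to 8541 for tRNAs, so counting error was small for the first 2 classes and larger for the tRNAs.

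Of all input counts the mRNAs took up 4.82% and 4.75% in sh-NC, against 4.55% and 4.43% in shMETTL14. The rRNAs held 1.93% and 1.90% against 1.80% and 1.73%, and the tRNAs 0.107% and 0.110% against 0.0968% and 0.0986%. In each class both shMETTL14 inputs lay below both sh-NC inputs. Over all 37 genes the mean share went from 6.81% ± 0.0670 in sh-NC to 6.35% ± 0.132 in shMETTL14 (SD, n = 2 per arm). An exact two-sided permutation test gave p = 0.33 for each of these differences, the smallest value that 2 cultures against 2 allow. In bulk RNA selected for poly(A), fewer mitochondrial genomes per cell, less RNA per genome, fewer cells rich in mitochondria and a different capture of mitochondrial RNA cannot be told apart.

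Levels between genes are given as CPM per kilobase of gene length. The RNA was selected for poly(A), so levels of mRNAs, rRNAs and tRNAs are those of captured RNA, not of all RNA in the cell. Among the mRNAs the highest was MT-CO3, a subunit of cytochrome c oxidase, at 10591 and 10157 CPM per kilobase under sh-NC, then 10380 and 9544 under shMETTL14. MT-ATP6, of the ATP synthase, had 7122, 6828, 6540 and 6343 CPM per kilobase in the same order of libraries. MT-CO1, the catalytic subunit of cytochrome c oxidase, had 6751, 6772, 6376 and 6220. The ranges of MT-ATP6 and MT-CO1 over the inputs overlapped, although MT-ATP6 was the higher in each library, while MT-CO3 stood above both in every input. MT-ND4 and MT-CO2 followed at means of 4450 and 3740 CPM per kilobase over the 4 inputs. MT-ATP8, MT-ND1, MT-ND6, MT-ND5, MT-ND4L and MT-ND2 lay close to each other, with means from 3176 down to 2217. MT-CYB of complex III had a mean of 1711, and MT-ND3, a small complex I subunit, was the lowest mRNA at 1006. The highest and lowest mRNA thus differed 10.1-fold.

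The 2 rRNA genes are neighbours, with only the gene of tRNA-Val between them. MT-RNR1, the RNA of the small ribosomal subunit, lies at positions 648 to 1601 of the mitochondrial genome (GRCh38), and MT-RNR2, that of the large subunit, at 1671 to 3229. MT-RNR2 had 12075 and 11797 CPM per kilobase in sh-NC, then 11171 and 10741 in shMETTL14, the highest mean level of the 37 genes. MT-RNR1 had 633, 638, 579 and 577 CPM per kilobase. Within a library MT-RNR2 was 18.5 to 19.3 times as high as MT-RNR1. MT-RNR2 alone gave 26.8% to 27.2% of the mitochondrial input counts, ahead of MT-CO1 with 15.1% to 15.5%.

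The tRNA genes spanned a 33.7-fold range. The 4 highest per kilobase were MT-TS1 (a tRNA for serine) at 2815, 2762, 3060 and 3016 CPM per kilobase, MT-TC (cysteine) at 2680, 2799, 2083 and 2131, MT-TY (tyrosine) at 2456, 2573, 1884 and 1940, and MT-TN (asparagine) at 1198, 1286, 1055 and 1071, each given for sh-NC inputs 1 and 2 and then shMETTL14 inputs 1 and 2. All 4 are encoded on the light strand, and MT-TN, MT-TC and MT-TY stand in 1 cluster at positions 5657 to 5891. The 4 lowest were MT-TI (isoleucine), MT-TP (proline), MT-TQ (glutamine) and MT-TM (methionine), with means of 216, 192, 123 and 86.3 CPM per kilobase. MT-TM had 187 to 239 input counts, the thinnest of all members. A count over a tRNA gene does not tell a mature tRNA from a longer transcript that runs through it. The labels describe a stranded kit, and whether strand was used in counting is not given in the sources used here.

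**Figure D1:**
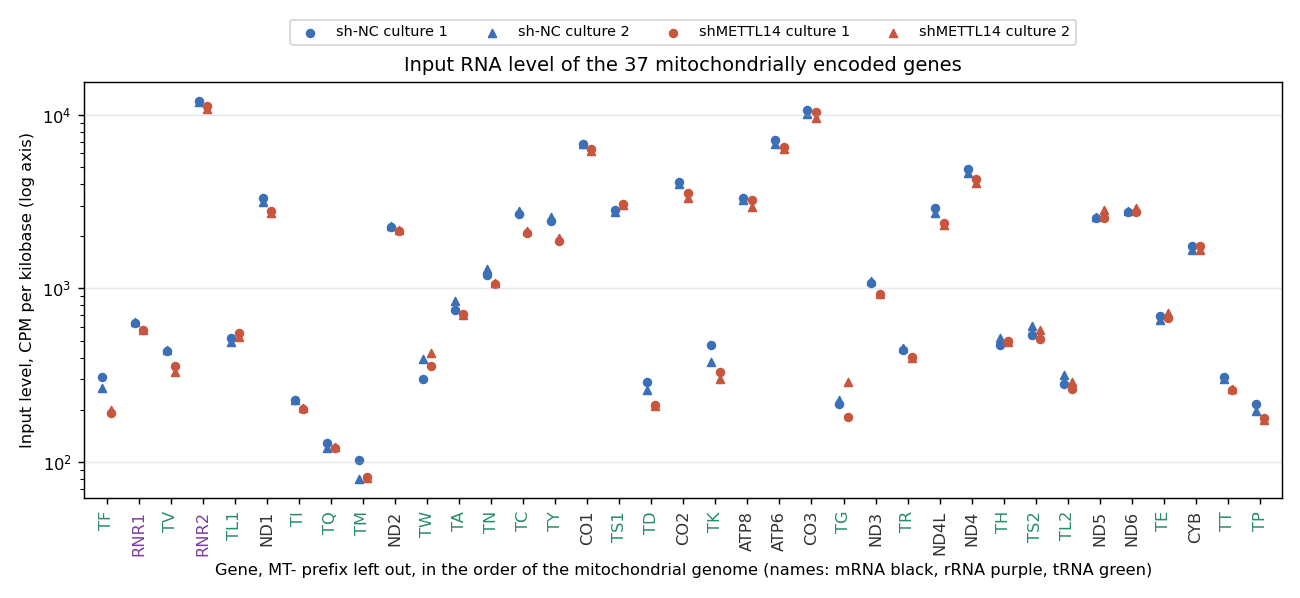
Input level of each mitochondrial gene in CPM per kilobase on a log axis, in genome order, with sh-NC inputs in blue, shMETTL14 inputs in red, circles for culture 1 and triangles for culture 2. MT-RNR2 and MT-CO3 lie at the top, MT-RNR1 lies 18.5 to 19.3 times below MT-RNR2, and MT-TM is at the bottom.

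The input libraries of the 2 arms were compared next, to see whether mitochondrial RNA levels differed after METTL14 knockdown. Of 13 mRNAs 8 fell in shMETTL14 and none rose, by edgeR's quasi-likelihood test, adjusted by Benjamini-Hochberg over 22245 genes. Over all genes tested 12.3% were called lower and 11.7% higher, and among the 400 genes with at least the mean count of MT-ND3, the mitochondrial genes included, 31.0% were called lower and 27.8% higher. The falls were small, from -0.25 to -0.09 on the log2 scale, and the median over the 13 mRNAs was -0.10 against 0.002 over all genes tested. The arms did not overlap for 8 mRNAs, all lower in shMETTL14, while of all genes tested 29.1% were lower and 29.4% higher without overlap.

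For complex I, which takes electrons from NADH, 5 of 7 subunits fell. MT-ND4L had 2893 and 2720 CPM per kilobase in sh-NC, then 2394 and 2316 in shMETTL14, a log2 change of -0.25 ± 0.03 (SE), the largest of the mRNAs (adjusted p = 2.68e-06, edgeR). MT-ND1 had 3299 and 3156 against 2802 and 2708 (log2 change -0.23 ± 0.03 SE). Both shMETTL14 values lay below both sh-NC values for these genes. MT-ND3 changed by -0.23, with 1078 and 1097 against 925 and 923, MT-ND4 by -0.19, with 4874 and 4624 against 4279 and 4025, and MT-ND2 by -0.09, with 2270 and 2296 against 2132 and 2171, again without overlap of the arms.

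The remaining complex I subunits, MT-ND5 and MT-ND6, did not pass the test. MT-ND5 had 2556 and 2570 CPM per kilobase in sh-NC, then 2535 and 2824 in shMETTL14, with a log2 difference of 0.06 ± 0.03 (SE, adjusted p = 0.186, edgeR). MT-ND6 had 2736 and 2777 against 2739 and 2906, with a log2 difference of 0.03 ± 0.03 (SE, adjusted p = 0.487, edgeR). For both genes shMETTL14 culture 2 was the highest input and the arms overlapped. The 2 genes face each other on opposite strands, MT-ND5 at positions 12337 to 14148 on the heavy-strand transcript and MT-ND6 at 14149 to 14673 on the light-strand one. The messenger of MT-ND5 is known to run on through the antisense of MT-ND6, so without strand their reads over that stretch could not be told apart.

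MT-CYB, the mitochondrially encoded subunit of complex III, had 1745 and 1672 CPM per kilobase in sh-NC, then 1759 and 1669 in shMETTL14, with a log2 difference of 0.005 ± 0.03 (SE) and arms that overlapped. MT-ND5, MT-ND6 and MT-CYB are the last 3 mRNA genes in the order of the genome and the 3 mRNAs with a difference above 0 (an observation made after the values were seen, and not tested). In complex IV, which passes electrons to oxygen, MT-CO2 fell by 0.24 on the log2 scale, from 4115 and 3973 to 3560 and 3310 CPM per kilobase. MT-CO1 fell by 0.10 and did not overlap between arms, while MT-CO3 had a difference of -0.06 ± 0.03 (SE, adjusted p = 0.192, edgeR) with arms that overlapped.

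Of the ATP synthase subunits, MT-ATP6 fell by 0.11 on the log2 scale and did not overlap between arms. MT-ATP8 had 3308 and 3214 CPM per kilobase against 3223 and 2958, with overlap and a difference of -0.08 ± 0.04 (SE, adjusted p = 0.126, edgeR). These genes share 46 bases of sequence, at positions 8527 to 8572, and are read from 1 messenger. Both rRNAs fell, MT-RNR1 by 0.14 and MT-RNR2 by 0.12 on the log2 scale (adjusted p = 0.00153 and 0.000464, edgeR), and their arms did not overlap.

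Of 22 tRNAs 9 fell, 1 rose and 12 did not pass the test, beside 12.3% of all genes called lower and 11.7% higher. The median of the mean counts was 978 for the tRNAs against 317 for all genes tested, and a share matched on counts is not given for them. The median log2 difference of the tRNAs was -0.16. Without overlap of the arms 12 tRNAs were lower and 2 higher in shMETTL14, beside 29.1% and 29.4% of all genes. The largest fall was that of MT-TF, the tRNA for phenylalanine at the start of the heavy-strand transcript, from 311 and 266 to 192 and 199 CPM per kilobase (log2 change -0.56 ± 0.09 SE, adjusted p = 3.51e-05, edgeR). MT-TK (lysine) followed at -0.43, from 470 and 378 to 331 and 300. Both shMETTL14 inputs lay below both sh-NC inputs for each of these tRNAs. In the light-strand cluster MT-TY fell by 0.39, MT-TC by 0.38, MT-TN by 0.22 and MT-TA (alanine) by 0.19 on the log2 scale. MT-TY and MT-TC are neighbours that share 1 base. MT-TD (aspartate) fell by 0.37, MT-TV (valine) by 0.35 and MT-TT (threonine) by 0.22. Of the 9 falls those of MT-TT and MT-TA were nearest to the threshold (adjusted p = 0.0426 and 0.0164, edgeR).

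The tRNA that rose was MT-TS1, by 0.12 ± 0.04 (SE, adjusted p = 0.0127, edgeR), and both shMETTL14 inputs lay above both sh-NC inputs. MT-TS1 lies on the light strand at positions 7446 to 7514, directly after MT-CO1, whose messenger is known to end with the antisense of this tRNA. MT-CO1 itself fell by 0.10. Of the lowest tRNAs, MT-TI had a log2 difference of -0.16 ± 0.09 (SE), MT-TP one of -0.21 ± 0.09 and MT-TM one of -0.15 ± 0.14, and MT-TQ had -0.05 ± 0.11. None of these 4 passed the test. MT-TE (glutamate), next to MT-ND6 on the same strand, had 694 and 661 against 677 and 725 CPM per kilobase and a difference of 0.05 ± 0.06 (SE), close to that of MT-ND6. The others that did not pass were MT-TL1 and MT-TL2 (leucine), MT-TW (tryptophan), MT-TG (glycine), MT-TR (arginine), MT-TH (histidine) and MT-TS2 (serine), with differences from -0.16 to 0.18.

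The number of calls depended on 1 library more than the size of the differences did. Without shMETTL14 culture 2, 4 mRNAs, 0 rRNAs and 3 tRNAs were called lower and 0 tRNAs higher. Over the 4 fits that left out a culture, the 8 mRNAs called lower kept log2 differences between -0.30 (MT-ND4L) and -0.07 (MT-ND2). MT-RNR1 stayed between -0.14 and -0.13, and MT-RNR2 between -0.15 and -0.10. Without shMETTL14 culture 1, 8 mRNAs were called lower and 1 higher. Without a filter beyond 1 read, 5 mRNAs, 1 rRNA and 3 tRNAs were called lower. The share of all genes called in these refits is not given, so their counts say nothing particular to the mitochondrial genes.

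**Figure D2:**
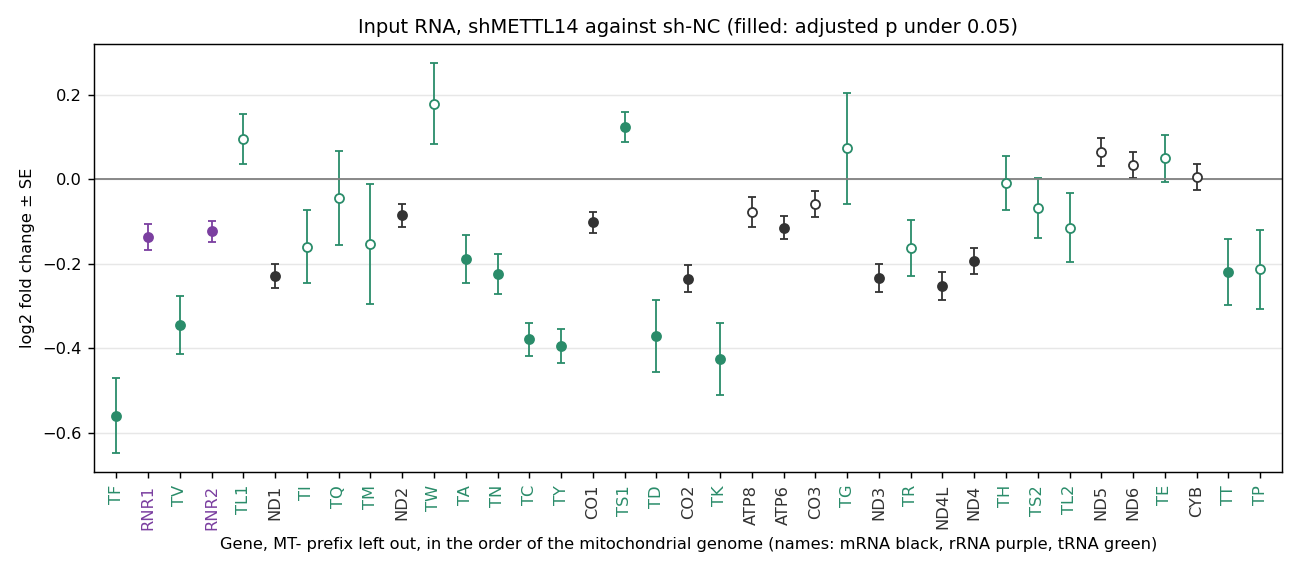
Log2 fold change of input RNA, shMETTL14 against sh-NC, for each mitochondrial gene in genome order, as points with SE bars from edgeR, filled where the adjusted p-value was under 0.05 (mRNA black, rRNA purple, tRNA green). Of 13 mRNAs 8 are filled below 0, and MT-ND5, MT-ND6 and MT-CYB at the right lie at 0.06, 0.03 and 0.005.

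Nuclear genes that serve mitochondrial RNA were read in the same inputs. The list had 50 genes in the table, for transcription, processing, modification and decay, and also for mitochondrial DNA copying and nuclear regulation. Of these 3 rose, 8 fell and 39 did not pass the test, beside 11.7% and 12.3% of all genes. HSD17B10, a subunit of the enzyme that cuts the 5′ ends of mitochondrial tRNAs, rose by 0.33 ± 0.06 on the log2 scale (SE), from 34.8 and 36.0 to 45.0 and 43.9 CPM. The catalytic subunit of the same enzyme, KIAA0391, fell by 0.28 (adjusted p = 0.00137, edgeR), and its subunit TRMT10C had a difference of 0.07 ± 0.07 (SE) that did not pass. SUPV3L1, the helicase of the mitochondrial RNA degradosome, rose by 0.22, while PNPT1, the nuclease it works with, fell by 0.18 (adjusted p = 0.0215, edgeR). KIAA0391, TRMT10C and PNPT1 were named after their values were seen. REXO2, which clears very short RNAs, rose by 0.16. METTL15, a methyltransferase of the small mitochondrial rRNA, fell by 0.68 ± 0.10 (SE), from 17.4 and 14.5 to 9.47 and 10.4 CPM. POLG, the mitochondrial DNA polymerase, fell by 0.31, and FASTKD2, which binds MT-RNR2, fell by 0.28. The arms did not overlap for HSD17B10, SUPV3L1, REXO2, METTL15, POLG or FASTKD2.

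IP over input, the ratio of a culture's IP CPM to its input CPM, says how a gene's share of the IP compares with its share of the input. A ratio of 1 is that of the average gene under TMM scaling and does not mean that m6A is absent. In sh-NC 11 of 13 mRNAs were called higher in the IP and 1 lower, in a fit of 22953 genes in which 29.1% were called higher and 29.8% lower. Among the 315 genes with at least the mean count of MT-ND3, 68.9% were called higher and 22.2% lower. In shMETTL14 again 11 mRNAs were called higher and 1 lower, beside 28.9% and 29.1% of all genes and 67.9% and 22.5% of those with high counts. The median log2 ratio over the mRNAs was 0.61 in sh-NC and 0.57 in shMETTL14, against -0.01 over all genes in each arm. When the scaling was set on the least enriched 25% of genes, the median of all genes itself moved to 0.87, and 0 mRNAs were called lower in either arm. The share of all genes called under that scaling is not given.

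Summed over a class, the ratio was 1.12 and 1.25 for the mRNAs of sh-NC and 1.14 and 1.20 for those of shMETTL14. The rRNAs together had 1.44 and 1.65, then 1.50 and 1.55, and the tRNAs 0.863 and 0.928, then 0.912 and 0.936. Within each class the arms overlapped. These sums follow the most abundant genes, and that of the rRNAs is nearly all MT-RNR2. Taken gene by gene, the median log2 ratio of the 2 rRNAs was -0.15 in sh-NC and -0.07 in shMETTL14, since MT-RNR1 had one of the low ratios. The 8 light-strand tRNAs had 0.793 and 0.853, then 0.835 and 0.880, below the 14 heavy-strand tRNAs, which had 1.02 and 1.10, then 1.08 and 1.06.

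The highest ratio of the mRNAs was that of MT-ATP8, at 2.13 and 2.37 in sh-NC, then 2.23 and 2.35 in shMETTL14 (log2 1.17 ± 0.04 and 1.19 ± 0.04, SE). MT-ATP6, which overlaps it, had 1.48 and 1.75 against 1.57 and 1.66. All 7 complex I mRNAs were called higher in both arms. They ran from MT-ND6, at 1.94 and 1.85 in sh-NC, then 1.67 and 1.66 in shMETTL14, through MT-ND2 (1.63 and 1.86, then 1.65 and 1.67), MT-ND4L (1.63 and 1.71, then 1.63 and 1.66), MT-ND1 (1.44 and 1.66, then 1.59 and 1.64) and MT-ND3 (1.46 and 1.59, then 1.51 and 1.46), to MT-ND5 (1.28 and 1.39, then 1.25 and 1.24) and MT-ND4 (1.20 and 1.33, then 1.19 and 1.22). MT-CYB was alike, with 1.20 and 1.41 against 1.22 and 1.25.

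By the mean of each arm the complex IV mRNAs had the lowest ratios of the 13, although in shMETTL14 culture 2 MT-CO2 (1.23) was level with MT-ND4 (1.22). MT-CO2 had 1.05 and 1.18 in sh-NC, then 1.14 and 1.23 in shMETTL14 and was called higher in both arms. MT-CO3 had 0.920 and 1.07 against 0.954 and 1.08 and did not pass the test in either arm (adjusted p = 0.800 and 0.631, edgeR). MT-CO1 had 0.533 and 0.594 against 0.579 and 0.607, called lower in both (log2 -0.83 ± 0.04 and -0.75 ± 0.04, SE). With scaling on the least enriched genes the log2 values of MT-CO1 were 0.06 and 0.13, so that its sign depends on the scaling, while it stayed below the median of all genes.

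The rRNAs stood on opposite sides of the average gene in all 4 cultures. MT-RNR2 had 1.47 and 1.69 in sh-NC, then 1.52 and 1.58 in shMETTL14 (log2 0.66 ± 0.03 and 0.64 ± 0.03, SE). MT-RNR1 had 0.477 and 0.549 against 0.590 and 0.580 (log2 -0.97 ± 0.04 and -0.77 ± 0.04, SE). With scaling on the least enriched genes MT-RNR1 had log2 values of -0.07 and 0.11.

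Of the tRNAs sh-NC had 4 called higher and 10 called lower, shMETTL14 had 6 and 10, beside 29.1% and 29.8% of all genes in the former arm, 28.9% and 29.1% in the latter, with median log2 ratios of -0.12 and -0.11. MT-TK had the highest, at 2.02 and 2.44 in sh-NC, then 2.54 and 2.48 in shMETTL14. Its gene lies between MT-CO2 and MT-ATP8, at positions 8295 to 8364. MT-TE had 1.59 and 1.74 against 1.62 and 1.67, MT-TV 1.31 and 1.51 against 1.27 and 1.46, and MT-TF 1.16 and 1.61 against 2.02 and 1.49. MT-TF was thus the most uneven between cultures of these 4.

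At the other end MT-TL2, the leucine tRNA before MT-ND5, had 0.614 and 0.613 in sh-NC, then 0.616 and 0.663 in shMETTL14. MT-TT had 0.615 and 0.609 against 0.507 and 0.586, and MT-TP 0.602 and 0.676 against 0.574 and 0.707. The abundant light-strand tRNAs were all below 1, MT-TY at 0.628 and 0.675 against 0.724 and 0.748, MT-TC at 0.643 and 0.686 against 0.743 and 0.774, MT-TN at 0.776 and 0.772 against 0.768 and 0.817, and MT-TS1 at 0.832 and 0.973 against 0.802 and 0.843. MT-TI and MT-TQ did not pass the test in either arm, while MT-TM, at 0.901 and 1.29 against 1.27 and 1.34, passed in shMETTL14 only (adjusted p = 0.0156, edgeR), a difference between arms that did not itself pass (adjusted p = 0.855, edgeR). MT-TG likewise passed in shMETTL14 only (adjusted p = 0.00175, edgeR), with a difference between arms that did not pass (adjusted p = 0.749, edgeR). With scaling on the least enriched genes 20 of 22 tRNAs were called higher and 0 lower in each arm, while the median of all genes moved to 0.87. The share of all genes called there is not given, so these counts say nothing particular to the tRNAs.

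**Figure D3:**
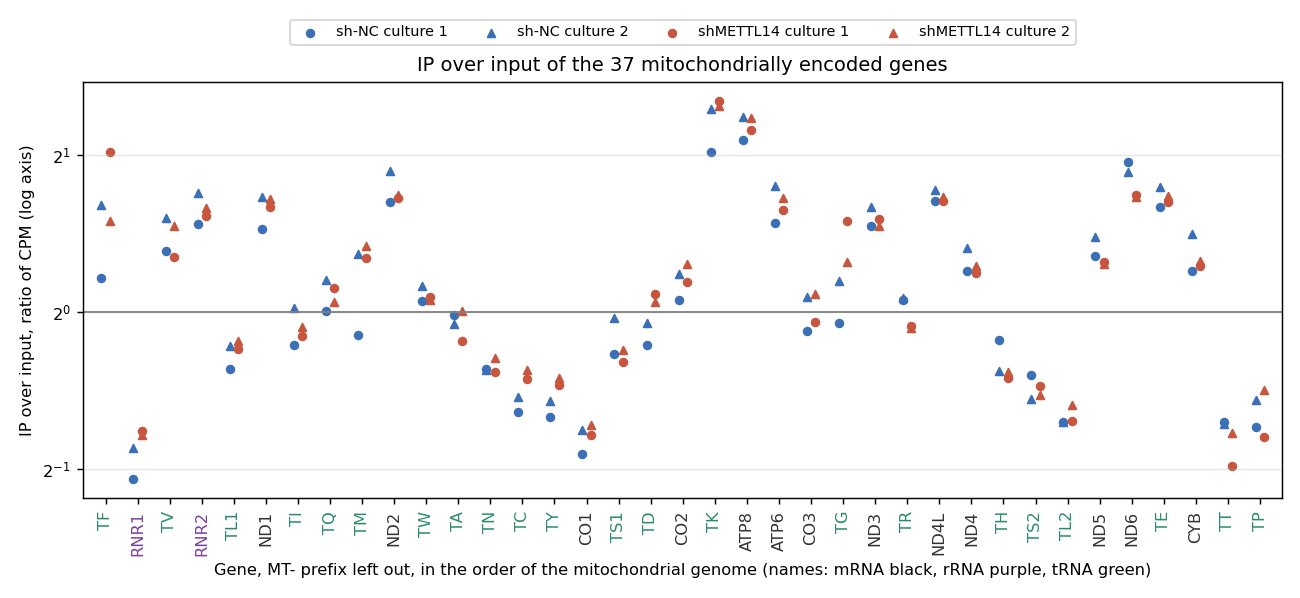
IP over input of each mitochondrial gene on a log axis, in genome order, with sh-NC cultures in blue, shMETTL14 cultures in red, circles for culture 1 and triangles for culture 2, and a line at 1. MT-TK and MT-ATP8 lie above 2, MT-CO1 and MT-RNR1 below 0.61, and the colours mix for most genes.

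Whether IP over input itself changed after METTL14 knockdown was tested as an interaction over the 8 libraries. Of 37 genes 0 were called in either direction by edgeR, beside 0.00436% of all genes called lower and 0.00% called higher. At an unadjusted p-value under 0.05, 1 mRNA, 1 rRNA and 5 tRNAs passed, beside 6.34% of all genes. By DESeq2 0 of the 13 mRNAs, 2 rRNAs and 22 tRNAs were called as well. Log2 changes of the 13 mRNAs ran from -0.19 to 0.09 with a median of -0.02, and their SEs from 0.05 to 0.06.

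The largest change of an mRNA was that of MT-ND6, -0.19 ± 0.05 (SE, adjusted p = 0.446, edgeR), and its ratios in the 2 arms, given above, did not overlap. It passed without a filter beyond 1 read (adjusted p = 0.00153, edgeR), a fit for which the share of all genes called is not given. MT-ND5 also had both shMETTL14 ratios below both sh-NC ratios, with a change of -0.11 ± 0.06 (SE, adjusted p = 0.794, edgeR). These were the only mRNAs of 13 without overlap, beside 17.2% of all genes lower and 17.1% higher. The remaining 11 overlapped, among them MT-CO2 with the highest value, 0.09 ± 0.05 (SE). MT-RNR1 had a change of 0.19 ± 0.06 (SE, adjusted p = 0.562, edgeR) with no overlap of the arms, and MT-RNR2 one of -0.02 ± 0.05.

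Among the tRNAs the highest values were those of MT-TG, 0.38 ± 0.17 (SE), from ratios of 0.950 and 1.15 in sh-NC to 1.49 and 1.25 in shMETTL14, and of MT-TF, 0.36 ± 0.13 (SE). MT-TC had 0.19 ± 0.06 (SE). Adjusted p-values of the 22 tRNAs were 0.604 or more (edgeR). The arms did not overlap for 3 of 22 tRNAs that were lower and 6 that were higher in shMETTL14, beside 17.2% and 17.1% of all genes.

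The changes of IP over input shifted with the culture that was left out. Over these fits MT-ND1 ran from -0.057 to 0.17 and MT-ATP6 from -0.13 to 0.12 on the log2 scale. MT-ND6 stayed between -0.22 and -0.17. Whether a gene was called depended on the culture left out, and the share of all genes called in those fits is not given. For 30 of 37 genes the ratio of sh-NC culture 2 was above that of culture 1, and for MT-ND1 and MT-ATP6, among others, the shMETTL14 ratios lay between these. In the IP libraries alone, with no account of the input, 8 mRNAs, 1 rRNA and 8 tRNAs were called lower and 1 tRNA higher. The share of all genes called in that fit is not given, so these counts say nothing particular to the mitochondrial genes.

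**Figure D4:**
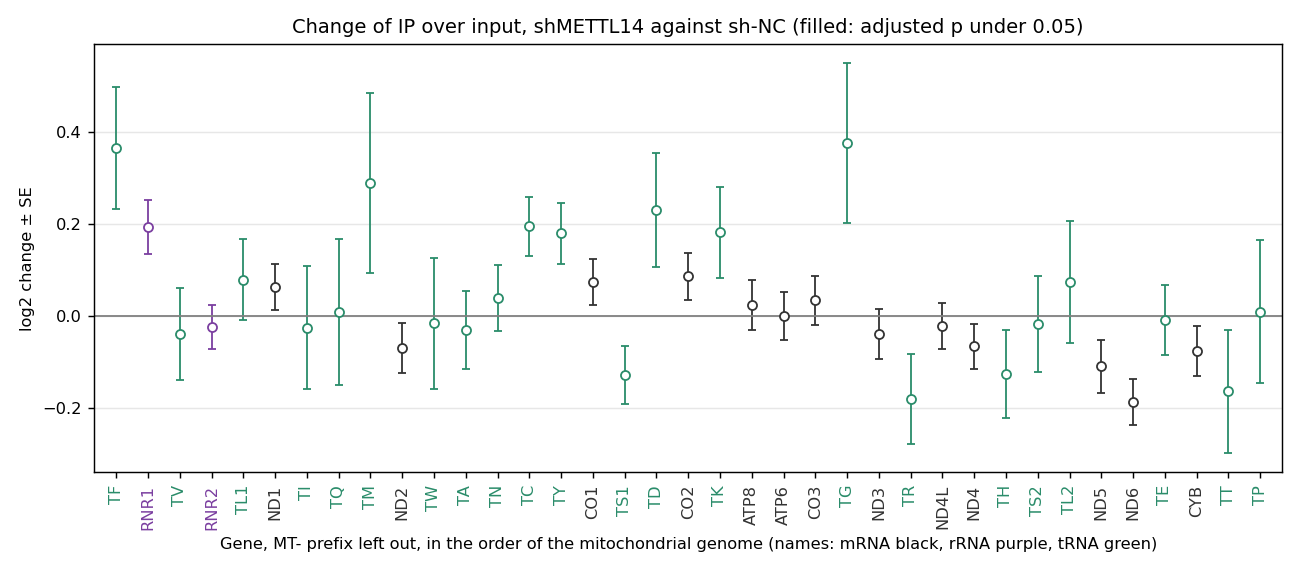
Log2 change of IP over input, shMETTL14 against sh-NC, for each mitochondrial gene in genome order, as points with SE bars from edgeR (mRNA black, rRNA purple, tRNA green). No point is filled, since 0 of 37 genes had an adjusted p-value under 0.05, and the mRNAs lie between -0.19 and 0.09.

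The nuclear genome holds copies of mitochondrial genes, and 386 of these are named in the table, of which 52 passed the filter. Together they took from 0.50% to 0.673% of the counts of a library. In the inputs, 38.3% to 39.8% of the counts on MT-ATP6 and its same-named copies lay on the copies. The input share was 16.7% to 17.5% for MT-CO1, 8.51% to 9.55% for MT-ND2 and 4.35% to 5.05% for MT-ND1. For MT-RNR2 the share was 2.71% to 2.98%, and for the other mRNAs with copies it was at most 2.32%. How reads were divided between a gene and its copies is not given in the sources used here. Levels and IP over input of MT-ATP6 and MT-CO1 carry this uncertainty.

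The copies with the most input counts were MTATP6P1 and MTCO1P12, both on chromosome 1, then MTRNR2L12 on chromosome 3 and MTRNR2L8 on chromosome 11. MTATP6P1 had ratios of IP to input of 1.15 and 1.33 in sh-NC, then 1.28 and 1.34 in shMETTL14, and MTCO1P12 had 0.353 and 0.358 against 0.357 and 0.399. Each lay below its mitochondrial namesake in all 4 cultures and on the same side of 1. MTRNR2L12, at 0.557 and 0.503 against 0.465 and 0.510, and MTRNR2L8, at 0.898 and 0.947 against 0.805 and 0.963, were below 1 where MT-RNR2 was above it. When the copies' counts were added to the gene of the same name, an alternative chosen after seeing the data, the number of mRNAs, rRNAs and tRNAs called in each direction was the same in every comparison.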

How the data were processed

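The authors deposited raw read counts per gene and library, without normalization. The submitters' processing notes name Trimmomatic 0.36 and GRCh38, while the aligner, the program that counted, its use of strand and the removal of duplicate molecular identifiers are not given in the sources used here. Gene coordinates and lengths come from the count table. Groups came from the sample titles, and 0 columns of other samples were present. Total counts were 32027379 to 47205265 per library, so that precision is set by 2 cultures per arm. Replicate libraries differed by more than sampling noise.

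The fits were run in edgeR 4.0.16 under R 4.3.3 (filterByExpr, TMM factors, glmQLFit, glmQLFTest, Benjamini-Hochberg adjustment, threshold 0.05). The input change used the 4 inputs (22245 genes). IP over input and its change used 8 libraries with 4 group means (22953 genes). CPM values carry TMM factors, and SE is the absolute log2 change divided by the square root of F. Shares were compared by an exact permutation test. The fits were also run on simulated counts, and the outcome is not given here, so that run lends the results no support. The IP and input of a culture come from the same RNA, and the correlation between their deviations from the mean of the group was 0.004 for sh-NC and 5.70e-05 for shMETTL14.

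The members, lists and tests were chosen with earlier results of these data known. The rule names all mRNAs and rRNAs, the 4 highest and 4 lowest tRNAs per base and each tRNA past the threshold in the input change or the change of IP over input, METTL14, the 3 largest rises and 3 largest falls of the machinery list (mean of 50 counts or more), and the 4 nuclear copies with most input counts. Other tRNAs were named after their values were seen. Alternatives were RLE factors, DESeq2 1.42.0, scaling by library size alone or without mitochondrial genes, other filters, all 8 libraries in 1 model, factors from the least enriched 25% of genes, IP libraries alone, a replicate block, shares of the other counts, copies added, and leaving out each culture. Sequences of the mitochondrial genes were not used here.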

Additional observations from a re-analysis of the deposited data

Results flagged for a closer look

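MT-TD and MT-TR were on opposite sides of 1 in the arms. The log2 IP over input of MT-TD was -0.21 and -0.07 for sh-NC, against 0.11 and 0.06 for shMETTL14, a difference of the means of 0.23, and that of MT-TR was 0.08 and 0.09 against -0.09 and -0.10, a difference of -0.18. They stand here because both cultures of 1 arm had ratios above 1 and both cultures of the other had ratios below 1. That pattern of signs was not tested. The fitted changes of IP over input did not pass edgeR's quasi-likelihood test (adjusted p = 0.805 for each). With library size alone as the scaling MT-TD had -0.03 in shMETTL14 and MT-TR had -0.05 in sh-NC, so that the opposite signs rest on the scaling.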

How the results depend on the processing

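With 2 cultures per arm the tests see only differences well above the spread between cultures, and for tRNAs with few counts, such as MT-TM, the error is widest. The replicate block on the culture number left 8 mRNAs, 2 rRNAs and 9 tRNAs lower in the input change, and no class count changed with it. The numbers of the 2 arms share only a number (correlation of input deviations -0.012). With DESeq2, RLE factors, scaling without mitochondrial genes and copies added, every class's number of calls was within 1.5 times its value above.

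Not every tRNA was followed singly in these alternatives. For IP over input MT-TL1, MT-TW, MT-TG, MT-TH and MT-TS2 were left out, and for the other comparisons other sets of tRNAs. Without a filter beyond 1 read, the input change had 5 mRNAs, 1 rRNA and 3 tRNAs lower and 0 tRNAs higher, and the change of IP over input had 1 mRNA lower. With library size only, 2 mRNAs were lower in the IP in each arm, with median log2 values of 0.48 and 0.45 for mRNAs and -0.25 and -0.23 for tRNAs in sh-NC and shMETTL14. In sh-NC MT-TQ then had -0.028, MT-TM -0.034 and MT-TR -0.045, and in shMETTL14 MT-CO3 -0.10, MT-TQ -0.012 and MT-TD -0.033, while the median of all genes moved to -0.14 and -0.13. When factors came from the least enriched genes that median became 0.87 in both arms by construction. In each arm 0 mRNAs, 0 rRNAs and 0 tRNAs were then lower and 20 tRNAs higher, with medians of 1.50 and 1.45 for mRNAs and 0.77 and 0.77 for tRNAs. Among the genes followed, values that changed sign there were, in sh-NC, MT-CO1 0.063, MT-CO3 0.88, MT-TI 0.79, MT-TA 0.83, MT-TN 0.52, MT-TC 0.30, MT-TY 0.27, MT-TS1 0.74, MT-TD 0.74, MT-TL2 0.18, MT-TT 0.18 and MT-TP 0.24, and in shMETTL14 MT-CO1 0.13, MT-RNR1 0.11, MT-TI 0.76, MT-TA 0.79, MT-TN 0.55, MT-TC 0.48, MT-TY 0.44, MT-TS1 0.60, MT-TR 0.78, MT-TL2 0.24, MT-TT 0.013 and MT-TP 0.24. In the IP libraries alone 8 mRNAs, 1 rRNA and 8 tRNAs were lower and 1 tRNA higher, with medians of -0.16 for mRNAs and -0.17 for tRNAs. How many of all genes that fit called is not given. The same holds for the fits without a filter, with library size only and with least enriched factors. MT-ND1 there had -0.17, MT-CO1 -0.036, MT-CO2 -0.16, MT-ATP8 -0.061, MT-ATP6 -0.12, MT-CO3 -0.032, MT-TF -0.20, MT-TC -0.19 and MT-TD -0.15. Among the genes followed, values near 0 also changed sign, namely the input change of MT-CYB (-0.0019 with all 8 libraries in 1 model and -0.00022 with scaling without mitochondrial genes), MT-CO3 in shMETTL14 (-0.0091 where 10 counts were required of each library) and the change of IP over input of MT-ATP6 (-0.0030 with DESeq2, -0.0029 with RLE factors, -0.0044 with at least 10 counts, -0.0085 with least enriched factors, -0.011 without a filter and -8.0e-05 with scaling without mitochondrial genes). The cause of these moves was not tested.

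Leaving out each culture in turn leaves 1 culture in an arm, assumed to vary like the other groups. The share of all genes called in these fits is not given, so counts of calls say nothing particular to the mitochondrial genes. In the input change the count of mRNAs then ran from 4 to 10 lower and 0 to 1 higher, of rRNAs from 0 to 2 lower, and of tRNAs from 3 to 7 lower and 0 to 1 higher. MT-CYB ran from -0.033 to 0.037, MT-ND5 from -0.021 to 0.14, MT-ND6 from -0.015 to 0.077, MT-TE from -0.0057 to 0.10, MT-TQ from -0.10 to 0.0099 and MT-TM from -0.33 to 0.040. For IP over input in sh-NC, 1 to 2 mRNAs were lower, with MT-CO3 from -0.12 to 0.11, MT-TI from -0.21 to 0.040 and MT-TM from -0.15 to 0.38. In shMETTL14 MT-CO3 ran from -0.064 to 0.12, MT-TA from -0.18 to 0.0069 and the tRNA median from -0.16 to -0.10. In the change of IP over input 0 to 4 mRNAs, 0 to 1 rRNAs and 0 to 1 tRNAs were lower, and 0 to 2 mRNAs and 0 to 1 rRNAs higher. The ranges there were -0.057 to 0.17 for MT-ND1, -0.18 to 0.032 for MT-ND2, -0.020 to 0.15 for MT-CO1, -0.017 to 0.17 for MT-CO2, -0.070 to 0.10 for MT-ATP8, -0.13 to 0.12 for MT-ATP6, -0.089 to 0.14 for MT-CO3, -0.12 to 0.021 for MT-ND3, -0.074 to 0.011 for MT-ND4L, -0.16 to 0.0060 for MT-ND4, -0.21 to 0.046 for MT-CYB and -0.14 to 0.077 for MT-RNR2.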
